A study of Mus musculus with 9 samples.

Results

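The immediate early genes were described by 10 members, Fos, Fosb, Jun, Junb, Egr1, Egr2, Nr4a1, Arc, Npas4 and Ier2, found by gene symbol among the 37816 genes of the count table. All 10 were present in the table and all 10 were among the 19353 genes with enough counts to be tested. The RNA came from the cerebellum of 9 mice on a C57BL/6 background, 3 per group and 18 months of age, and every mouse carried human ATXN3 on a yeast artificial chromosome. The tract held 15 CAG repeats in the 15Q control group and 84 in the 84Q group, a model of spinocerebellar ataxia type 3 (SCA3), and in the 84Q+IGF-1 group, which also received weekly intraperitoneal IGF-1 (insulin-like growth factor 1) at 50 mg/kg from 9 to 18 months. The methods give PBS (0.01 M) injections on the same schedule for the other mice, whereas the labels call them untreated. The labels do not give the interval between handling or the last injection and the harvest.

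Immediate early genes are transcribed within minutes of synaptic activity, growth factor signaling or stress, without the need for new protein. Calcium and MAP kinase signaling act on factors already bound at their promoters, CREB at the cAMP response element (CRE) and the serum response factor at the CArG box, and the messages are short-lived. In the cerebellum, Fos and its relatives are used as a readout of recent activity in granule cells and other neurons. Most members encode transcription factors. The FOS and JUN proteins pair to form AP-1, EGR1 and EGR2 are zinc finger proteins, NR4A1 is an orphan nuclear receptor, and NPAS4 is a neuron-specific factor of the basic helix-loop-helix and PAS family. Ier2 encodes a small nuclear protein, and Arc encodes a cytoskeleton-associated protein that takes part in the removal of AMPA receptors from synapses.

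The libraries held between 17482654 and 58269196 counts, and the lowest total belonged to 84Q replicate 3. A floor of 3 counts stood between 0.0515 and 0.172 CPM (counts relative to the library's total, scaled by TMM). Summed markers of granule cells (10 of 10 measured) lay between 6166 and 7144 CPM, and those of Purkinje cells (10 of 10) between 7569 and 8475 CPM. Summed choroid plexus markers (12 genes) reached 1185 CPM in 15Q replicate 1, 1154 CPM in 15Q replicate 3 and 2107 CPM in 84Q replicate 2, and lay between 121.6 and 215.0 CPM in the other 6 libraries. Folr1 of that list had 0 counts in 84Q replicate 3. Fewer cells of a type and less RNA per cell cannot be told apart in bulk tissue.

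The main feature of these genes was a large spread between mice of the same group, which ran in parallel across most members, and no member passed the test of a difference between groups. Among the members with counts in each library, Fos had the widest range. Its CPM was 2.97, 18.3 and 20.5 in the 3 libraries of the 15Q group, 3.80, 22.0 and 88.0 in the 84Q group, and 12.2, 16.4 and 4.87 in the 84Q+IGF-1 group, in the order of the replicate numbers. Each group thus held 1 library far below the others, and 84Q replicate 3 stood far above the rest. The underlying counts were 80, 737 and 1201, then 110, 500 and 1543, then 284, 435 and 142, so that the highest count came from the shallowest library. The highest library was 29.6-fold above the lowest, and both bounds lay far above the floor.

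**Figure D1:**
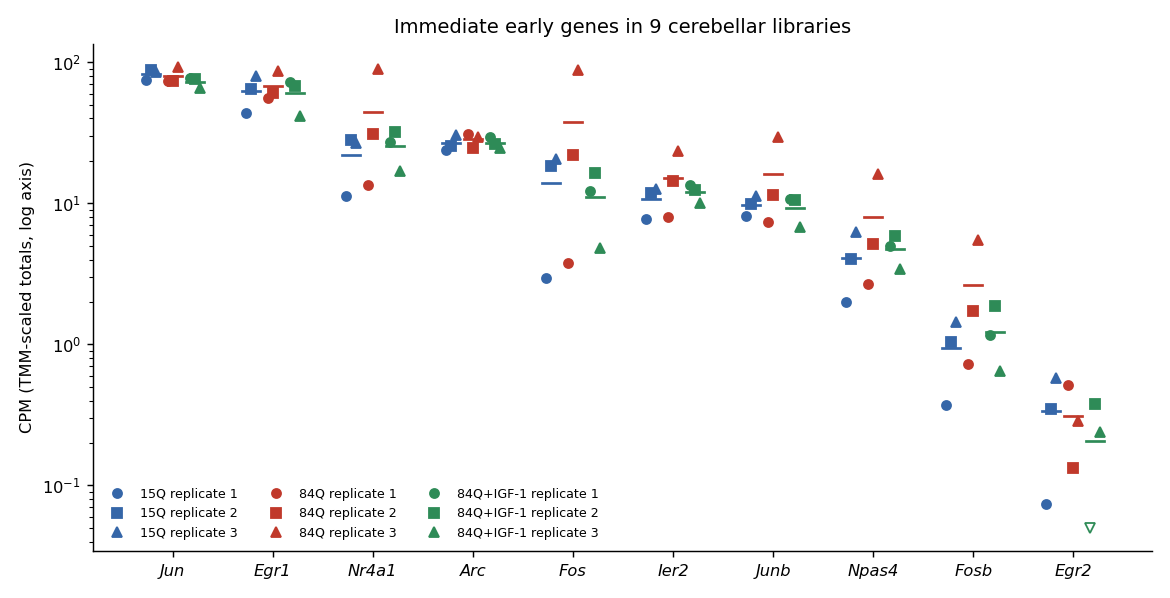
Levels of the 10 immediate early genes in CPM (log axis) in each of the 9 libraries, with colors for the groups, marker shapes for the replicate numbers and horizontal bars for the group means. The open triangle marks the library in which Egr2 had 0 counts. 84Q replicate 3 stands highest for 8 of 10 genes, and Fos runs from 2.97 to 88.0 CPM while Arc stays between 23.8 and 31.3 CPM.

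Levels of different genes were compared per length of exon. Mean TPM (counts relative to exon length and the library's total) over the 9 libraries was 98.5 for Jun and 56.6 for Egr1, then between 33.1 and 35.7 for Arc, Fos, Nr4a1 and Ier2, 20.2 for Junb, 5.39 for Npas4, 1.02 for Fosb and 0.335 for Egr2. The order of the 4 genes from Arc to Ier2 was not resolved, since Fos alone had group means from 18.8 ± 9.83 TPM (SD, n = 3) in 84Q+IGF-1 to 62.8 ± 73.1 TPM (SD, n = 3) in 84Q. Jun stood above Egr1 in each library.

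The members were located by GENCODE vM21 on GRCm38, the assembly to which the reads were aligned. Fos (ENSMUSG00000021250.13) lies on the plus strand of chromosome 12 from 85473890 to 85477273, and Fosb (ENSMUSG00000003545.3) on the minus strand of chromosome 7 from 19302696 to 19310051. Jun (ENSMUSG00000052684.4) lies on chromosome 4 from 95049034 to 95052222 and Junb (ENSMUSG00000052837.7) on chromosome 8 from 84974484 to 84978718, both on the minus strand. Ier2 (ENSMUSG00000053560.5) shares chromosome 8 with Junb, on the same strand from 84661331 to 84662852. Egr1 (ENSMUSG00000038418.7) is on chromosome 18 from 34859823 to 34864984 and Egr2 (ENSMUSG00000037868.15) on chromosome 10 from 67535475 to 67542188, both on the plus strand. Nr4a1 (ENSMUSG00000023034.7, plus strand, 101254269 to 101274795) and Arc (ENSMUSG00000022602.14, minus strand, 74669083 to 74672570) both lie on chromosome 15. Npas4 (ENSMUSG00000045903.9) is on the minus strand of chromosome 19 from 4984355 to 4990316. The values are counts over all exons of a gene, so isoforms were not separated.

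The AP-1 subunits were next examined one by one. Fosb, a paralog of Fos in the FOS family, had 0.372, 1.04 and 1.44 CPM in 15Q, 0.725, 1.71 and 5.53 CPM in 84Q, and 1.16, 1.88 and 0.651 CPM in 84Q+IGF-1, a 14.9-fold range on counts from 10 to 97. Its order of libraries was close to that of Fos, with the same 3 libraries lowest and the same one highest. Junb, a JUN protein that is itself an early-response gene, had 8.14, 9.83 and 11.3 CPM in 15Q, 7.35, 11.4 and 29.4 CPM in 84Q, and 10.7, 10.5 and 6.79 CPM in 84Q+IGF-1. Without 84Q replicate 3, its 8 libraries lay between 6.79 and 11.4 CPM. Jun, the canonical partner of FOS, differed by only 1.41-fold between the highest and lowest library, at 75.1, 88.4 and 86.1 CPM in 15Q, 74.1, 73.6 and 92.7 CPM in 84Q, and 77.0, 76.5 and 65.6 CPM in 84Q+IGF-1. The groups overlapped for all 4 subunits.

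Among the zinc finger factors, Egr1 was abundant and moderately variable. Its level was 43.4, 64.6 and 79.6 CPM in 15Q, 56.0, 60.5 and 87.5 CPM in 84Q, and 72.5, 67.7 and 41.5 CPM in 84Q+IGF-1, a 2.11-fold range. Egr2 was near the detection limit, with counts of 2, 14 and 34 in 15Q, 15, 3 and 5 in 84Q, and 0, 10 and 7 in 84Q+IGF-1. The 0 counts in 84Q+IGF-1 replicate 1 allow a level of up to 0.128 CPM, and 2 other libraries had no more than 3 counts, so that counting error is large for this gene. The floors cover counting error only.

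Nr4a1 and Npas4 followed the pattern of Fos. Nr4a1 had 11.2, 28.0 and 26.6 CPM in 15Q, 13.5, 31.3 and 89.6 CPM in 84Q, and 27.3, 31.9 and 17.1 CPM in 84Q+IGF-1, a 7.98-fold range. Npas4, which responds to calcium entry in neurons, had 2.01, 4.05 and 6.23 CPM in 15Q, 2.69, 5.14 and 16.3 CPM in 84Q, and 5.02, 5.84 and 3.43 CPM in 84Q+IGF-1. Ier2 was lower in amplitude, at 7.73, 11.9 and 12.7 CPM in 15Q, 8.07, 14.3 and 23.4 CPM in 84Q, and 13.5, 12.4 and 10.1 CPM in 84Q+IGF-1. For all 3 genes the lowest library of each group was also the group's lowest for Fos. Arc behaved otherwise, with 23.8, 25.6 and 30.4 CPM in 15Q, 31.3, 24.8 and 29.8 CPM in 84Q, and 29.6, 26.2 and 24.9 CPM in 84Q+IGF-1, a 1.31-fold range with no library apart.

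To assess whether the expanded repeat or IGF-1 treatment was accompanied by a change in these genes, the groups were compared by edgeR's quasi-likelihood test, fitted to the 9 libraries together and adjusted by Benjamini-Hochberg over all tested genes. Genes that changed by 1.5-fold or more, with an adjusted p below 0.1, were called. In 84Q compared with 15Q, 0 of 10 members were called, against a background of 2.14% of all tested genes, and 0 of 10 had an unadjusted p under 0.05, against 19.4% of all tested genes. The groups overlapped for 10 of 10 members, whereas 25.4% of all tested genes had groups that did not overlap. Of the 10 log2 fold changes, 8 were positive and 2 negative, with a median log2 fold change of 0.58 for the members and -0.0019 for all tested genes. Fos had the highest value, with group means of 13.9 ± 9.56 CPM (SD, n = 3) in 15Q and 37.9 ± 44.3 CPM (SD, n = 3) in 84Q. Its log2 fold change was 1.39 (SE 0.85), with a 95% interval from -0.47 to 3.24 and an adjusted p of 0.399 in edgeR. Fosb had the lowest adjusted p, 0.278 in edgeR, at a log2 fold change of 1.34 (SE 0.64). The larger positive values depended on 84Q replicate 3. Without it 4 of the 8 were below 0, with a log2 fold change of -0.16 for Fos, -0.11 in place of 0.90 for Npas4, -0.07 in place of 0.68 for Junb and -0.11 in place of 0.11 for Egr1, while Fosb stood at 0.26, Nr4a1 at 0.0059 in place of 0.99 and Ier2 at 0.036 in place of 0.47. The small value of Arc, 0.10, changed little without that library (0.08) and was lowest without 84Q replicate 1 (0.032). Without 84Q replicate 1, which was low for Fos, the values were higher, at 1.94 for Fos, 1.82 for Fosb, 1.44 for Nr4a1, 1.33 for Npas4, 1.04 for Junb and 0.79 for Ier2, with adjusted p between 0.101 and 0.143 in edgeR, so that none was called. In the same comparison 8 of 9 microglial markers (4 with an unadjusted p under 0.05) and 8 of 10 Purkinje cell markers (4) had log2 fold changes above 0, and 8 of 8 meningeal markers (7) below 0. Summed microglial markers lay between 175.3 and 218.5 CPM in 15Q and between 217.6 and 266.5 CPM in 84Q, and summed meningeal markers between 496.2 and 818.8 CPM and between 256.6 and 498.2 CPM. The part of these lists in the members' values was not tested.

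In 84Q+IGF-1 compared with 15Q, the members lay on both sides of 0. Again 0 of 10 were called, against 2.25% of all tested genes, and 0 of 10 had an unadjusted p under 0.05, against 17.7% of all tested genes. The groups overlapped for 10 of 10 members against 24.7% of tested genes without overlap. Of the log2 fold changes, 5 were positive and 5 negative, with a median of -0.0219 against -0.0051 for all tested genes. Jun had the smallest standard error, with a log2 fold change of -0.19 (SE 0.097, 95% interval -0.40 to 0.02, adjusted p 0.333 in edgeR). The interval for Fos, -2.26 to 1.54, includes large differences in both directions, whereas that for Arc, -0.24 to 0.26, does not reach the fold change threshold of 1.5. Log2 fold changes were below 0 for 12 of 12 choroid plexus markers (11 with an unadjusted p under 0.05), 8 of 8 meningeal (8), 8 of 8 blood (2) and 8 of 10 endothelial markers (5). They were above 0 for 8 of 10 Purkinje cell (3) and 6 of 10 granule cell markers (0). The part of these lists in the members' values was not tested.

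In 84Q+IGF-1 compared with 84Q, the values of all 10 members were below 0 and none passed the test. Over all genes 0 were called with edgeR, or 0%, with 905 (4.68%) at an unadjusted p under 0.05 and 6 called with DESeq2, and of the members 0 of 10 had an unadjusted p under 0.05 and 0 were called with DESeq2. The groups overlapped for 10 of 10 members, while 8.46% of tested genes had groups that did not overlap. The median log2 fold change was -0.66 for the members and -0.0033 for all tested genes. Fos went from 37.9 ± 44.3 CPM (SD, n = 3) to 11.1 ± 5.83 CPM (SD, n = 3), a log2 fold change of -1.75 (SE 0.88, 95% interval -3.67 to 0.18, adjusted p 0.969 in edgeR). Without 84Q replicate 3, the log2 fold change of Fos was -0.19 and those of Fosb, Egr1, Nr4a1, Npas4 and Ier2 were above 0, between 0.04 and 0.29. In the same comparison the log2 fold changes of several marker lists were also below 0 throughout, for 8 of 8 oligodendrocyte markers (6 with an unadjusted p under 0.05), 9 of 9 microglial markers (2), 12 of 12 choroid plexus markers (9) and 8 of 8 blood markers (0), with none called, whereas 3 of 10 granule cell and 4 of 10 Purkinje cell markers were below 0. Summed oligodendrocyte markers lay between 3071 and 4026 CPM in 84Q+IGF-1 and between 4015 and 5050 CPM in 84Q, and summed microglial markers between 190.1 and 206.7 CPM and between 217.6 and 266.5 CPM. The part of these lists in the members' values was not tested. This comparison and that of 84Q with 15Q share the 84Q libraries, and the opposite signs of their values are not separate observations. When the 6 libraries with 84 repeats were set against 15Q, 0 of 10 members were called, against 3.51% of all tested genes. One setting gave calls among the members. With no filter on low counts in edgeR, Fos, Fosb, Junb, Nr4a1 and Npas4, or 5 of 10, were called higher in 84Q against 15Q (against 0.357% of all 37816 genes). The same 5 were called lower in 84Q+IGF-1 against 84Q (against 0.407%), and 2 of 10, Fosb and Nr4a1, higher in the pooled comparison (against 0.301%). In that fit the prior degrees of freedom were infinite, against 5.73 with the filter, so that a gene's own spread between mice did not enter its test, and the variance used for Fos was 0.577 in place of 38.1. With no filter and robust shrinkage, which let Fos keep a variance of 73.9, 0 of 10 members were called.

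**Figure D2:**
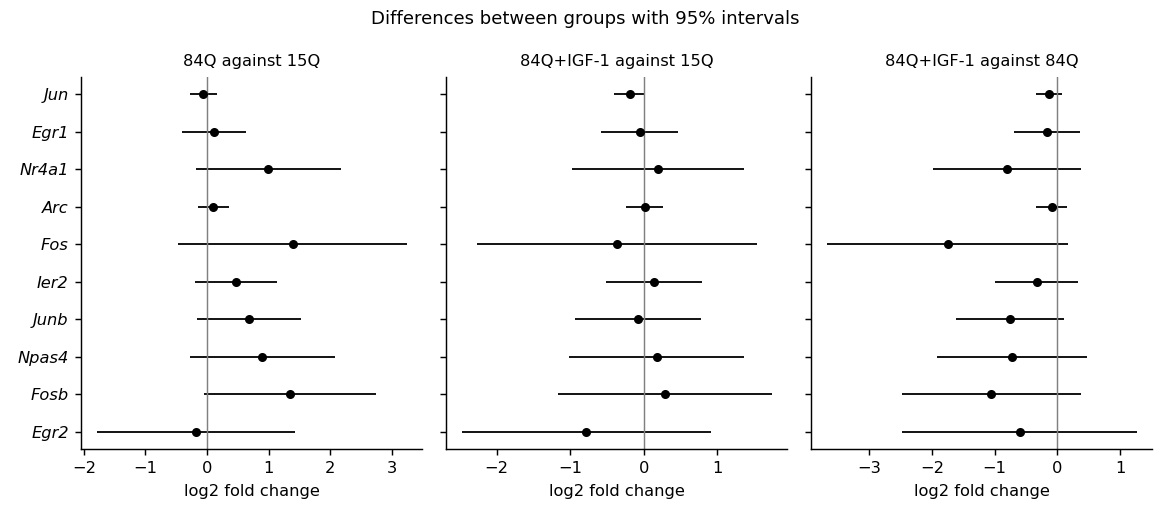
Log2 fold changes of the 10 members in the 3 comparisons (points) with 95% intervals (lines) from the edgeR fit to 9 libraries, with a vertical line at 0. Each interval includes 0, those of Fos, Egr2 and Fosb are the widest, and Jun and Arc are the narrowest.

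The spread between mice of a group was compared with that of all tested genes. The within-group standard deviation of log2 CPM was 1.67 for Fos, which ranked 38 among 19353 genes, against a median of 0.148 for all tested genes. Egr2 (1.16), Fosb (1.06), Nr4a1 (0.94) and Npas4 (0.91) were each exceeded by between 0.667% and 1.48% of genes, and for Egr2 this was at counts where few reads set the value. Junb, at 0.64, was exceeded by 4.39% of genes, Ier2, at 0.51, by 8.42%, and Egr1, at 0.41, by 14.2%. Arc (0.16) and Jun (0.15) were close to the median gene. The group labels accounted for 9.56% of the variance of log2 CPM of Fos and for 28.7% of that of Jun, the highest share among the members. With 3 libraries per group, group means take up part of the variance even where groups do not differ. These shares are therefore not a measure of a group effect. With the level taken into account, the biological coefficient of variation in the edgeR fit was 0.706 for Fos, where the trend for genes of its abundance was 0.109, and 0.448 against 0.102 for Nr4a1. For Arc both values were nearly equal, at 0.107 and 0.105. With any 1 library left out, the standard deviation of Fos stayed between 1.30 and 1.82, and its rank between 21 and 109. Ranks of other members also moved with single libraries. Without 84Q replicate 3, Junb fell to 0.34 (rank 3588 in place of 851), Ier2 to 0.38 (2869 in place of 1630), Nr4a1 to 0.67 (600 in place of 261), Npas4 to 0.64 (718 in place of 287) and Fosb to 0.83 (316 in place of 179), and without 84Q replicate 1 Ier2 fell to 0.36 (rank 3452). With a prior count of 0.5 in place of 2, the standard deviation of Egr2 was 1.73 (rank 97) and that of Fos 1.67 (rank 108), and Fosb, Nr4a1 and Npas4 ranked 297, 469 and 490, in place of 179, 261 and 287.

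**Figure D3:**
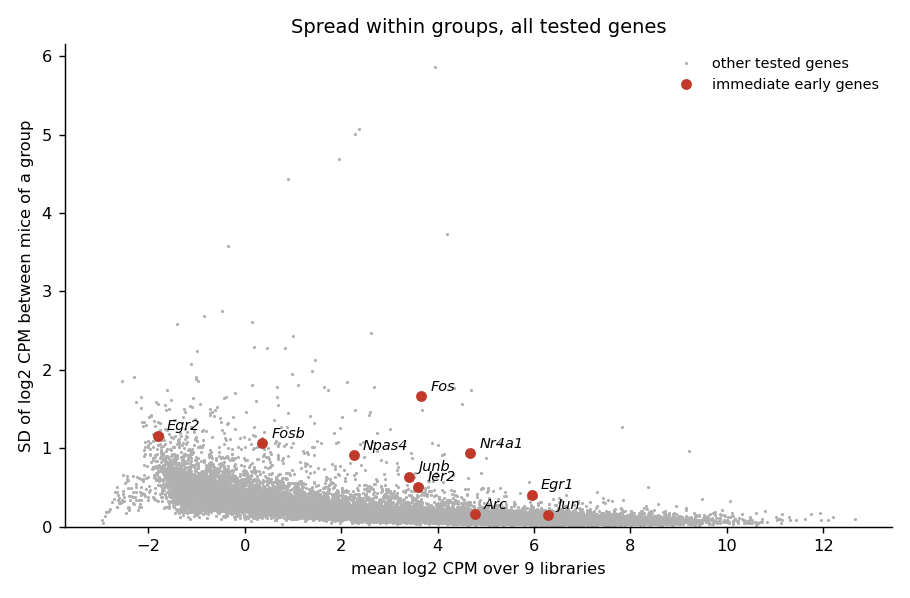
Standard deviation of log2 CPM between mice of a group (y axis) against mean log2 CPM (x axis) for 19353 tested genes in grey, with the 10 immediate early genes in red. Fos (1.67) and Nr4a1 (0.94) stand above most genes of like abundance, while Arc (0.16) and Jun (0.15) lie within the bulk.

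The members did not vary independently of each other. Fos values fell on 3 levels, with 3 libraries from 2.97 to 4.87 CPM, 5 from 12.2 to 22.0 CPM and 1 at 88.0 CPM, and every group had 1 library on the lowest level. For 6 of the other 9 members (Fosb, Junb, Egr1, Nr4a1, Npas4 and Ier2) the same 3 libraries were the lowest, and for 7 of 9, Jun included, 84Q replicate 3 was the highest. Pearson's r of log2 CPM with Fos over 9 libraries was 0.98 for Nr4a1, 0.96 for Ier2, 0.95 for Fosb, 0.95 for Npas4, 0.90 for Junb, 0.85 for Egr1 and 0.74 for Jun, with Spearman's rho of 0.83, 0.88, 0.85, 0.88, 0.87, 0.72 and 0.52. In exact permutation tests (two-sided, adjusted over the 9 correlations), p for r was between 0.000663 and 0.00492 for the first 6 and 0.0289 for Jun. For rho the adjusted p in the exact permutation tests was between 0.0135 and 0.0553 for the first 6 and 0.208 for Jun. Arc (r 0.29, rho 0.18, adjusted exact permutation p 0.522 and 0.644) and Egr2 (r 0.16, rho 0.20, adjusted exact permutation p 0.667 and 0.644) did not pass these tests.

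The relation was recomputed without the extreme libraries and within the groups. When the 2 libraries farthest from the median of Fos, 15Q replicate 1 and 84Q replicate 3, were left out, r was 0.95 for Nr4a1, 0.94 for Junb, 0.90 for Ier2, 0.87 for Fosb and for Npas4, 0.71 for Egr1 and 0.65 for Jun, over 7 libraries. With the group means subtracted, r was between 0.85 and 0.99 for the same 7 genes. No level of Fos held 6 libraries, so r was not computed within a level. Among the 15 pairs of Fos, Fosb, Junb, Nr4a1, Npas4 and Ier2, r lay between 0.90 and 0.98, whereas the 9 pairs with Arc gave 0.28 to 0.65. The members differed in amplitude, since the slope against Fos (log2 per log2) was 0.66 for Fosb, 0.56 for Nr4a1, 0.53 for Npas4, 0.37 for Junb, 0.30 for Ier2, 0.21 for Egr1 and 0.08 for Jun.

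**Figure D4:**
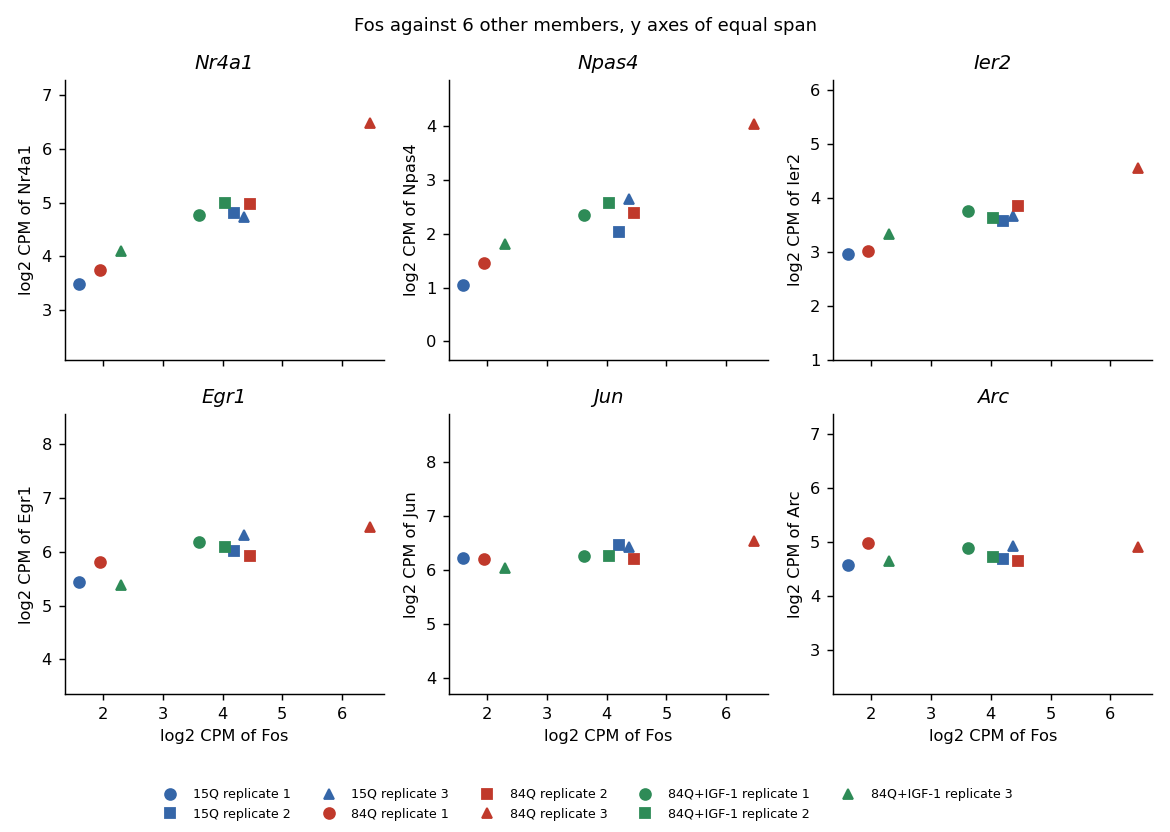
Log2 CPM of Nr4a1, Npas4, Ier2, Egr1, Jun and Arc (y axes of equal span) against log2 CPM of Fos (x axis), 1 point per library. Nr4a1 (r 0.98), Npas4 (0.95) and Ier2 (0.96) rise along with Fos across groups, Egr1 (0.85) less steeply, and Jun (0.74) and Arc (0.29) are nearly flat.

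Levels of other cell types were read beside this pattern. Summed markers of granule cells, Purkinje cells, inhibitory interneurons, astrocytes, oligodendrocytes, microglia, endothelial cells, choroid plexus, meninges, blood and forebrain were computed, and of their 97 tested genes 0 had an r over 0.7 with Fos and 1 an r under -0.7, the endothelial gene Pecam1 (r -0.73), at 25.4 to 31.1 CPM. The summed forebrain markers (8 genes, 6 tested) were highest in 84Q replicate 3, at 309.0 CPM, and lay between 254.7 and 283.0 CPM in the other libraries. That sum had an r of 0.65 with Fos, and it consisted mainly of Neurod2 and Cux2. Blood markers (8 of 8 tested) summed to 88.7 CPM in that library, to 25.4 and 36.9 CPM in the other 84Q libraries, to between 36.8 and 214.8 CPM in 15Q and to between 30.6 and 60.6 CPM in 84Q+IGF-1, with the highest in 15Q replicate 2. The 3 libraries rich in choroid plexus markers were 1 of the lowest Fos level and 2 of the middle level. The part of forebrain or blood RNA, of the total count or of the time of harvest in these values was not tested.

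The wider set of rapid-response genes was then examined in 3 lists with 52 genes, of which 48 were tested. In each of the 4 comparisons, 0 of 48 were called, against 2.14%, 2.25%, 0% and 3.51% of all tested genes. In 84Q compared with 15Q, 36 of the 48 log2 fold changes were positive (75.0%, against 49.7% of all tested genes), and 6 genes (12.5%) had an unadjusted p under 0.05, against 19.4% of all tested genes. In 84Q+IGF-1 against 15Q 31 were positive (64.6%, against 48.9%), with 10 (20.8%) under 0.05, against 17.7%. Between the groups with 84 repeats 20 were positive (41.7%, against 48.7%), with 1 (2.08%) under 0.05, against 4.68%. In the pooled comparison 36 were positive (75.0%, against 48.7%), with 9 (18.8%) under 0.05, against 22.6%. Of these 48 genes, 10 had an r over 0.7 with Fos over the 9 libraries and 0 had an r under -0.7, as against 1.48% and 1.39% of the tested genes outside the members. The 10 genes were named after their values were seen. They include Dusp1 (r 0.99), a phosphatase that inactivates MAP kinases, Nr4a2 (0.97), the relative of Nr4a1, Sik1 (0.91), a kinase induced by cAMP, Egr4 (0.90), Btg2 (0.85), Dusp5 (0.83), Trib1 (0.82), Klf2 (0.75), Gadd45g (0.72) and Fosl2 (0.72), a further AP-1 subunit. Dusp1 had 14.7 CPM in its lowest library and 90.6 CPM in its highest, and Nr4a2 7.73 and 56.5 CPM.

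Relatives of the members did not all follow. Nr4a3, the third NR4A receptor, had an r of 0.32 with Fos and a group mean of 15.0 CPM in 84Q+IGF-1, against 6.89 in 15Q and 8.70 in 84Q, at an adjusted p of 0.220 in edgeR for 84Q+IGF-1 against 15Q. The higher mean came from 84Q+IGF-1 replicate 2, at 28.5 CPM, and without it the mean of that group was 8.33 CPM. The mean of 84Q without its own highest library, replicate 3, was 6.53 CPM. Egr3 had an r of 0.54. The 2 most abundant genes of each list were Nab1 (r 0.06) and Nab2 (29.3 CPM, r 0.65), corepressors of the EGR proteins, Atf4 (123.4 CPM, r 0.67) and Mafg (92.8 CPM, r 0.22) among the AP-1 partners, and Per1 (123.2 CPM, r 0.49) and Mcl1 (80.9 CPM, r 0.54) among the other rapid-response genes. Within the AP-1 partners 1 of 7 tested genes had an r over 0.7, in the EGR and NR4A families 2 of 6, and in the other rapid-response genes 7 of 35.

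Genes upstream and downstream of the members were compared with Fos in the same way. Of 32 tested upstream kinases, channels and transcription factors, 0 had an r over 0.7 with Fos and 1 an r under -0.7 (Elk3, -0.72), and their median within-group standard deviation of log2 CPM was 0.0964. None was called in any comparison, since none reached both the fold change and the adjusted p required. In 84Q against 15Q, 13 of the 32 (40.6%) had an unadjusted p under 0.05, against 19.4% of all tested genes, with a lowest adjusted p of 0.0792 in edgeR. In the pooled comparison these were 10 of 32 (31.2%), against 22.6%, with a lowest adjusted p of 0.0342 in edgeR. The shares were nearer to those of all tested genes in 84Q+IGF-1 against 15Q, at 6 of 32 (18.8%) against 17.7%. The same held in 84Q+IGF-1 against 84Q, at 2 of 32 (6.25%) against 4.68%. The most abundant were Camk2b (1045 CPM, 1.14-fold range over libraries) and Ppp3ca (755.7 CPM, 1.25-fold). Of 16 late-response and synaptic effector genes, 0 had an r over 0.7 and 0 were called. An unadjusted p under 0.05 was found for 1 (6.25%) in 84Q against 15Q, against 19.4% of all tested genes. The count was 0 in 84Q+IGF-1 against 15Q, against 17.7%, and 2 (12.5%) in 84Q+IGF-1 against 84Q, against 4.68%. It was 1 (6.25%) in the pooled comparison, against 22.6%. Most abundant of the 16 were Ntrk2 (470.1 CPM, 1.25-fold range), the BDNF receptor, and the potassium channel gene Kcna1 (203.7 CPM, 1.38-fold). Of 12 heat-shock genes, 0 had an r over 0.7 and 0 were called, with Hspa8 (1486 CPM) and Hsp90aa1 (756.6 CPM) the most abundant. Of 15 clock genes, led by Tef (302.9 CPM) and Nr1d2 (180.1 CPM), 0 had an r over 0.7, and only Npas2 was called, higher in 84Q+IGF-1 than in 15Q at a log2 fold change of 0.59 (SE 0.12, adjusted p 0.033 in edgeR). In that comparison 4 of 12 heat-shock genes (33.3%) and 4 of 15 clock genes (26.7%) had an unadjusted p under 0.05, against 17.7% of all tested genes, and in 84Q against 15Q 2 of 12 (16.7%) and 3 of 15 (20.0%), against 19.4%. In the pooled comparison these were 4 of 12 and 5 of 15 (33.3% in both), against 22.6%. The shares of all tested genes called were 2.14% in 84Q against 15Q, 2.25% in 84Q+IGF-1 against 15Q, 0% between the groups with 84 repeats and 3.51% in the pooled comparison.

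The tested genes outside the members that were most like them were found by r with the mean of the members' standardized log2 CPM over 9 libraries, as a description. They were Dusp1 (r 0.97), Arl6ip6 (0.94), Gm44243 (0.94), Ier3ip1 (0.93), Ppp1r15a (0.93), Slc7a7 (0.93), Gm9392 (0.93) and Oas2 (0.93). Dusp1 varied 6.19-fold between libraries, and the other 7 between 1.34-fold and 2.36-fold. Ppp1r15a encodes a regulatory subunit of the phosphatase that acts on the translation factor eIF2. Gm9392 is annotated as a processed pseudogene, whose reads can be shared with its parent gene, and its value is uncertain.

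Promoter sequences were read for the members with the widest and the narrowest parallel changes. RefSeq windows on GRCm38.p6, from 250 bases before to 50 after the start site, were at hand for 7 of 10 members and not for Arc, Ier2 and Egr1. Shown 5′ to 3′ are the parts upstream of the start and outside annotated exons for the 4 members with the largest folds between libraries, among those with counts in each library and such a stretch, and for Jun, which hardly varied. Capitals mark the CRE half-site TGACG, or the EGR site GCGNGGGCG, on either strand. The intervals are chr12:85473640-85473889 (plus strand) for Fos, chr7:19310052-19310295 (minus) for Fosb, chr8:84978749-84978998 (minus) for Junb, chr15:101266596-101266845 (plus) for Nr4a1 and chr4:95052223-95052472 (minus) for Jun.
Fos: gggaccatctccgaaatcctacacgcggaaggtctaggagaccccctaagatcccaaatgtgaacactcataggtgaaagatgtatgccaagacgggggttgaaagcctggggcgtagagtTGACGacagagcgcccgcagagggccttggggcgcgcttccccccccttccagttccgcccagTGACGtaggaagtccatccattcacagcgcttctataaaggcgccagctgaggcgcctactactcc
Fosb: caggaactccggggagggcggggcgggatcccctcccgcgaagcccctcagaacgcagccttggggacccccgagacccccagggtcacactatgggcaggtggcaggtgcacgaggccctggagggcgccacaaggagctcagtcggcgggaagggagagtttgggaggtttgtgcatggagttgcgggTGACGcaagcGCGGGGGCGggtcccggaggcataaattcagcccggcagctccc
Junb: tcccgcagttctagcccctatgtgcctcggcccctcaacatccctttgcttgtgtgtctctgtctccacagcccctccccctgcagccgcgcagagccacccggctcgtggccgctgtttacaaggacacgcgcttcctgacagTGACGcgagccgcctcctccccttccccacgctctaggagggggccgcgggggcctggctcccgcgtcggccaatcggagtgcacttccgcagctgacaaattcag
Nr4a1: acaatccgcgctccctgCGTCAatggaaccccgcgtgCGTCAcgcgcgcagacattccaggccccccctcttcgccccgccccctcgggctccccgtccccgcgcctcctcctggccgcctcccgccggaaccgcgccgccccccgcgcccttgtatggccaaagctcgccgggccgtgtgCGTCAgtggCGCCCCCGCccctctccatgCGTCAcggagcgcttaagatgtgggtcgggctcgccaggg
Jun: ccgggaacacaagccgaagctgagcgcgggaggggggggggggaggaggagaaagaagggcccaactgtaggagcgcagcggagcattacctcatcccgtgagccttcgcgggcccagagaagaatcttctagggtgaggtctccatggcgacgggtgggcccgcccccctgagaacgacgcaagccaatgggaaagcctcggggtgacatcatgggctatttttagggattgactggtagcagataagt

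The half-site TGACG occurred 2 times in the Fos stretch, with first bases at -129 and -66 from the start site, once in Fosb at -60, once in Junb at -106, and 4 times in Nr4a1 at -233, -213, -69 and -40. The Npas4 window held 2 (at -179 and -169), in annotated exon sequence that is not shown, and the Jun window held 0. Egr2, which did not pass the correlation tests with Fos, had 5 windows, and 3 overlapping ones held the same 2 half-sites. Of all 32817 promoter windows of the same length, 20.79% held at least 1 half-site on either strand. The full CRE (TGACGTCA), which contains the half-site and was found in 1.79% of windows, was in 0 of these 6 windows. An EGR site stood at -50 in Fosb and at -60 in Nr4a1 (5.56% of windows), the AP-1 site TGANTCA (7.81% of windows) in 0 of the 6, and a CArG box (1.63% of windows) in 0 of the 6. In Egr2, 4 of the 5 windows held a CArG box, at 2 distinct positions (-72 from 1 start site, and -72, -73 or -133 from the other 3). These matches are letters in a window and were not tested for binding. Sequence more than 250 bases upstream of a start site was not searched, so a motif absent here may lie farther upstream.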

How the data were processed

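Cerebellar RNA of 9 mice was sequenced from strand-specific libraries in paired-end reads. Per the labels and methods, the authors used bcl2fastq 2.20, Trimmomatic 0.36, HISAT2 2.2.0 and featureCounts (GRCm38.p6, listed as mm10). The deposited values are unnormalized read counts per gene. The annotation and strand setting of the counting are not given in the sources used here, so reads of overlapping or antisense genes may be shared. Groups and replicate numbers came from the labels.

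Counts were tested in edgeR 4.0.16 (R 4.3.3) with filterByExpr, TMM and a quasi-likelihood fit to 9 libraries. DESeq2 1.42.0, run without filterByExpr, was an alternative. Standard errors were derived from the F statistic. CPM used TMM-scaled totals, log2 CPM a prior count of 2, and TPM the union of exon lengths in GENCODE vM21, which placed 37681 of 37816 genes. Tests were two-sided. In the group comparisons, differences were judged against the spread between mice, except in the edgeR fit with no filter, where a gene's own spread did not enter. Permutation p-values of correlations were taken over all 9 libraries without regard to group. Sex, used as a covariate in 1 alternative, was read from Xist and Ddx3y counts. On simulated counts of 84Q against 15Q (19353 genes), 72% of genes changed 2-fold and 96% of those changed 4-fold were called, with 9 unchanged genes. These rates are over genes in general and were not computed for the members. The common biological coefficient of variation was 0.1135. That of Jun (0.0887) and Arc (0.107) was lower, and that of the other members lay between 0.206 (Egr1) and 0.706 (Fos). The rates therefore do not give the chance of a call for these more variable members.

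The members and gene lists were chosen with earlier results of these data known. Genes named were the members, in each other list the called genes and the 2 most abundant tested genes (for lists described in the text), the 8 genes most like the members, and those said to be named after their values were seen, to which Nr4a3, Egr3, Pecam1, Elk3 and Folr1 also belong. Permutation p-values of correlations, the left-out libraries and the other prior count for the spread, and the fit with no filter and robust shrinkage were added after the data were seen. Promoter windows were read from RefSeq, and motifs were searched on both strands.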

Additional observations from a re-analysis of the deposited data

Results flagged for a closer look

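Among the 6 libraries with 84 repeats (84Q and 84Q+IGF-1 together), 84Q replicate 3 lay far above the others for 5 of the 10 members by a test of the gap to the nearest library over the whole range. Its CPM was 88.0 for Fos (gap 0.784 of the range), 5.53 for Fosb (0.747), 29.4 for Junb (0.796), 89.6 for Nr4a1 (0.757) and 16.3 for Npas4 (0.768), each above Dixon's 95% critical value for 6 samples. These gaps were taken on the CPM scale. On log2 CPM, a scale added after the data were seen, 1 of the 5, Junb (0.648), was above that value, and the others were below it (Fos 0.443, Fosb 0.513, Nr4a1 0.545, Npas4 0.572). On the CPM scale it was also the highest of the 6 for Ier2 (0.591), Jun (0.578) and Egr1 (0.325), below that value. Chance gives such a gap in about 1 in 20 groups of normally distributed values, a rate that need not hold for CPM of these genes, and the 5 genes varied together, so that they are not separate events. The library also had the lowest total of counts, 17482654. The cause was not tested.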

How the results depend on the processing

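In the edgeR alternatives that kept the filter on low counts and all members, 0 of 10 were called in each comparison. These included DESeq2 size factors, an adjusted p under 0.05, no fold change threshold, robust shrinkage, sex as a covariate, and leaving out any 1 library. The DESeq2 test, fitted to all 37816 genes without that filter, also called 0 of 10. In fits to the compared libraries alone, where Egr2 did not pass the filter, 0 of the other 9 were called. In edgeR without the filter, 5 members were called in 84Q against 15Q, 5 in 84Q+IGF-1 against 84Q and 2 in the pooled comparison. With no filter and robust shrinkage together, a setting added after the data were seen, 0 were called. Log2 fold changes of single members were tallied over the settings in the 3 comparisons between groups, without the pooled one. Of 567 values, 524 kept their direction and their side of the threshold, 10 passed it (all without the filter) and 33 changed sign. The settings that changed only the adjusted p or the fold change threshold reused the main fit, so their signs could not change. Robust shrinkage with the filter also left the fold changes as they were.

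Numbers of genes called, given first for 84Q and then for 84Q+IGF-1 against 15Q, then for treated against untreated 84Q, and last for the pooled comparison, were 1025, 1284, 168 and 1568 without the filter, and 909, 1088, 40 and 1411 with no filter and robust shrinkage. With no fold change threshold 928, 711 and 1886 were called, and at an adjusted p under 0.05 243, 281 and 429 (84Q+IGF-1 against 84Q had 0 in both). DESeq2 called 6 in 84Q+IGF-1 against 84Q. With 1 library left out the numbers ran from 184 to 551, from 226 to 629, from 0 to 9 and from 275 to 889, and the lowest were without 15Q replicate 2 (184 and 244) or 15Q replicate 3 (185, 226 and 275).

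With the replicate number as a block, the numbers called were 242, 271, 0 and 455, and no call of a member changed. The numbers did not pair the samples, since r of the deviations of same-numbered libraries from their group means was between -0.309 and 0.079, with 0 of 9 over 0.1. In that block fit the log2 fold change of Egr2 in 84Q against 15Q was 0.086 and that of Fos in 84Q+IGF-1 against 15Q 0.25, and in 84Q+IGF-1 against 84Q Fos was -0.90 in place of -1.75, Nr4a1 -0.45 in place of -0.80 and Npas4 -0.38 in place of -0.72. With sex as a covariate, Egr2 in 84Q against 15Q was 0.37 and Egr1 in 84Q+IGF-1 against 15Q 0.022.

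Signs changed with 1 library left out as follows, given as the lowest and highest log2 fold change. In 84Q against 15Q they were Fos from -0.16 to 1.94, Jun from -0.17 to 0.0024, Junb from -0.072 to 1.04, Egr1 from -0.11 to 0.33, Egr2 from -0.86 to 0.50 and Npas4 from -0.11 to 1.35. In 84Q+IGF-1 against 15Q they were Fos from -0.80 to 0.028, Fosb from -0.16 to 0.73, Junb from -0.18 to 0.11, Egr1 from -0.25 to 0.17, Nr4a1 from -0.10 to 0.42, Arc from -0.059 to 0.13, Npas4 from -0.11 to 0.63 and Ier2 from -0.036 to 0.28. In 84Q+IGF-1 against 84Q they were Fosb from -1.54 to 0.037, Egr1 from -0.31 to 0.056, Egr2 from -1.29 to 0.084, Nr4a1 from -1.24 to 0.19, Npas4 from -1.15 to 0.29 and Ier2 from -0.65 to 0.11. The r with Fos turned negative for Arc (-0.26) and Egr2 (-0.11) without the 2 libraries farthest from the median of Fos. The within-group standard deviation of Junb fell from 0.64 to 0.34 without 84Q replicate 3. With 3 mice per group, the 95% intervals of Fos span several log2 units. The causes were not tested.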

Other observations

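The mean of the members' standardized log2 CPM placed the libraries in the order 84Q replicate 3 (1.64), 15Q replicate 3 (0.55), 84Q+IGF-1 replicate 2 (0.19), 15Q replicate 2 (0.10), 84Q replicate 2 (0.0055), 84Q+IGF-1 replicate 1 (-0.03), 84Q replicate 1 (-0.45), 84Q+IGF-1 replicate 3 (-0.85) and 15Q replicate 1 (-1.17), with each group on both sides of 0. Nr4a3 was the NR4A receptor that departed from this order, at 28.5 CPM in its highest library, 84Q+IGF-1 replicate 2, and 5.08 CPM in its lowest, in 15Q.

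Genes called in the lists of other cell types were fibroblast and meningeal markers. In 84Q against 15Q, Lum (log2 fold change -0.89, adjusted p 0.0821 in edgeR) and Col1a1 (-0.67, adjusted p 0.0206) were lower. In 84Q+IGF-1 against 15Q, Dcn, Lum, Col1a1, Col1a2 and Col3a1 were lower, with log2 fold changes between -2.68 and -0.64, and in the pooled comparison these and Slc6a13 were lower. The r of these 6 genes with Fos over 9 libraries lay between -0.20 and 0.011.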
